A study of Mus musculus with 16 samples.

Results

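The set described here holds 9 genes: Onecut2, Plekhg4, S100g, Bpifb6, Ces2a, Bhmt, Parm1, Efs and Cmtm5. They are 9 of the 55426 genes in the table, and all 9 had enough counts to be among the 18833 that were tested. They were chosen by their measured levels in testosterone-treated and control ovaries, so their treated and control values are given below as a description with no test. The set carried the working name of genes nearly silenced together with the luteal program. Onecut2 and Plekhg4 were under 1 CPM (counts relative to library size) in every treated library and at 14.2 CPM or more in every control. S100g, Bpifb6, Ces2a and Bhmt were also under 1 CPM in every treated library, but so were some of their controls. Cmtm5 was under 1 CPM in every library, treated or control. Parm1 and Efs stood at 8.33 CPM or more in every treated library, so the name was not borne out for them. Nor was it borne out at both times for Bhmt and Cmtm5, whose groups overlapped on testosterone and after it, respectively. The luteal part of the name was examined within the controls below. There Bhmt, Ces2a and Bpifb6 had a Pearson's r of 0.916 or more with a score of luteal genes. None of the 9 genes passed after adjustment over all 18833 tested genes.

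Each library came from 1 ovary of 1 female C57BL/6NHsd mouse, an inbred strain, with 4 mice in each of 4 groups. On T mice were 16 weeks old and had received 0.9 mg of testosterone enanthate, a slowly released testosterone ester, under the skin once a week for 6 weeks from 9 to 10 weeks of age. Post T mice had received the same course, were then left without it until 4 estrous cycles had passed, and were 24 to 28 weeks old. Each treated group had controls of its own age that were injected with sesame oil, called On T controls (16 weeks) and Post T controls (24 to 28 weeks) here. All ovaries of all 4 groups were collected in diestrus. Libraries held 26598055 to 52659637 expected counts, the estimated read counts per gene, and 3 counts in a library corresponded to 0.0571 to 0.117 CPM. In whole-ovary RNA, fewer cells of a type and less RNA per cell cannot be told apart.

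The corpus luteum forms from the granulosa and theca cells of a follicle after ovulation and makes progesterone. Its cells take up cholesterol, convert it with Star, Cyp11a1 and Hsd3b1, and regress at the end of the cycle unless pregnancy follows, so an ovary of a cycling mouse holds corpora lutea of several ages. Most of the 9 genes are better known elsewhere: Bhmt and Ces2a encode enzymes of liver and gut, S100g a calcium carrier of gut and uterus, and Onecut2 a transcription factor of liver, pancreas and nerve cells.

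Promoters are shown for S100g, Bhmt, Ces2a and Bpifb6, which of the genes with counts in every control had the widest ratio of highest to lowest control, because that spread is the pattern the values below turn on. Each line gives the 250 bases before the start of the RefSeq transcript on GRCm38.p6, 5' to 3' on the gene's strand, with capitals for motif matches. Motifs were searched on both strands, so a match on the other strand appears as its reverse complement. The S100g window lies at chrX:162964600-162964849 (minus strand), the Bhmt window at chr13:93637759-93638008 (minus strand), the Ces2a window at chr8:104733753-104734002 (plus strand) and the Bpifb6 window at chr2:153900138-153900387 (plus strand).
S100g: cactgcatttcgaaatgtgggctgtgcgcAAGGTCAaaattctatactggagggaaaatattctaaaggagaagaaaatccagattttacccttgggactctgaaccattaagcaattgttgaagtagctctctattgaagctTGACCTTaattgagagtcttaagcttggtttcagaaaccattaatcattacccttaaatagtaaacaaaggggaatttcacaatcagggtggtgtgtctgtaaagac
Bhmt: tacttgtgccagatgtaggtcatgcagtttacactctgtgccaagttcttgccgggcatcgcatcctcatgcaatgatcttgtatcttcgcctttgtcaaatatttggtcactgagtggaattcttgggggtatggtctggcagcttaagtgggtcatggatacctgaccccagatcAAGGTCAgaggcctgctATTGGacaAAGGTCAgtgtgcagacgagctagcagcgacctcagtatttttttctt
Ces2a: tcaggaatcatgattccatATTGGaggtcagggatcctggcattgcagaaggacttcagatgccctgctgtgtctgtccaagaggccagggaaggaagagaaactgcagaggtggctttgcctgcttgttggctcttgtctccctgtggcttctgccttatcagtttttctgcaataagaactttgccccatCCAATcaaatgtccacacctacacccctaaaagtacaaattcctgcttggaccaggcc
Bpifb6: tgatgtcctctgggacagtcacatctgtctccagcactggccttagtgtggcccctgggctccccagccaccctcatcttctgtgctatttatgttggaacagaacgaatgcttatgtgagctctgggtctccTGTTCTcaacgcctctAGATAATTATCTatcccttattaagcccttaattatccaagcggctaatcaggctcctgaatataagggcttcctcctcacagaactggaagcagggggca

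The motif AAGGTCA, the extended site read by the orphan receptors Nr5a1 and Nr5a2 that drive steroid genes, was present in S100g (starting 221 bases before the transcript start, and 107 bases before it on the other strand) and in Bhmt (73 and 48 bases before). It was in 2 of the 8 genes with a sequence in the table and in 4.05% of all 27025 promoters of that length. The GATA motif AGATAA lay in Bpifb6 on both strands, 101 and 95 bases before the start, so that the copies abut in a palindrome, and it was in 10.25% of all promoters. TGTTCT, a core element of steroid receptor sites, was also in Bpifb6, 117 bases before the start, and in 16.17% of all. CCAAT was in Ces2a, Bhmt and Cmtm5 and in 34.46% of all. In the 8 windows the cyclic AMP element TGACGTCA (1.62% of all promoters) and TATAAA (12.97%) did not occur. The windows of S100g, Bpifb6, Ces2a and Cmtm5 held 2, 3, 0 and 0 CpG sites against a median of 6 over all promoters, and 38.1% of promoters held 3 or fewer, while those of Plekhg4, Parm1 and Efs held 12, 11 and 18. No GENCODE transcript start was found in the windows of Plekhg4 and Efs, and the Plekhg4 window lies inside the gene body. For Plekhg4 and Efs the CpG counts and the absence of motifs may therefore not describe a promoter in use. The windows of Bhmt, Parm1 and Cmtm5 held the GENCODE gene start and ran past it into the gene body. All marked matches of Bhmt and the CCAAT of Cmtm5 lay in that part. If the GENCODE start is the one in use, these matches are not before it. These matches describe letters only, and binding was not measured.

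Onecut2 encodes a homeobox and cut-domain transcription factor. In the On T controls it stood at 14.2, 21.2, 19.8 and 14.9 CPM, and in the Post T controls at 14.9, 20.8, 15.5 and 17.8 CPM. In the On T libraries it stood at 0.0571, 0.0655, 0.0867 and 0.0578 CPM, and in the Post T libraries at 0.0246, 0.0892, 0.136 and 0.0903 CPM. The 8 treated libraries together held 22 Onecut2 counts, 1 to 4 each, and the 8 controls held 4915, so no treated library came near a control. The log2 fold change was -7.98 (SE 0.27) on testosterone and -7.67 (SE 0.27) after it. Among the 9 genes Onecut2 was also the most even across control mice, with the highest control 1.49 times the lowest.

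Plekhg4, a guanine nucleotide exchange factor for small GTPases, lies at chr8:105373274-105382862 on the plus strand. It stood at 61.2, 124, 107 and 144 CPM in the On T controls and 16.7, 39.3, 60.7 and 89.5 CPM in the Post T controls. On testosterone it stood at 0.514, 0.819, 0.809 and 0.347 CPM, and after testosterone at 0.738, 0.713, 0.272 and 0.429 CPM. Every treated library was at least an order of magnitude below the lowest control, which was Post T control 1. The log2 fold change was -7.47 (SE 0.52) on testosterone and -6.56 (SE 0.52) after it. Exons of Kctd19 on the other strand cover 1.022% of its exon bases.

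S100g, which encodes the small calcium-binding protein calbindin-D9k, lies at chrX:162961992-162964599 on the minus strand. Its counts were 74, 113, 68 and 166 in the On T controls, and 2, 68, 45 and 96 in the Post T controls. On T libraries held 1, 0, 29 and 0 counts and Post T libraries held 0 in all 4. The groups did not overlap in CPM, but On T library 3 at 0.838 CPM and Post T control 1 at 0.0779 CPM stood apart from their groups. Against a floor of 3 counts over the 4 Post T libraries, S100g was at least 78.8-fold lower after testosterone. On testosterone the log2 fold change was -3.78 (SE 1.02), and it was -7.92 without On T library 3. That library also held the most of several luteal genes in its group, with Star at 124 CPM against 19.4 to 43.9 in the other 3 and Cyp11a1 at 2230 against 624 to 903. Their part in the S100g level was not tested.

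Bhmt encodes betaine-homocysteine methyltransferase, which remethylates homocysteine to methionine. It lies at chr13:93616675-93637961 on the minus strand. It stood at 0.432, 20.4, 0.511 and 4.00 CPM in the On T controls and 183, 0.437, 6.55 and 20.1 CPM in the Post T controls. Treated libraries stood at 0.781, 0.491, 0.838 and 0.231 CPM on testosterone and at 0.393, 0.119, 0.136 and 0.316 CPM after it. The On T groups overlapped, because On T controls 1 and 3 held as little Bhmt as treated ovaries. Post T control 2 was as low as these and lay just above its treated group, whose highest library was 0.393 CPM. The log2 fold change was -3.36 (SE 1.45) on testosterone, and -1.42 without On T control 2. After testosterone it was -7.67 (SE 1.68), and -5.14 without Post T control 1. Windows of 150 bases found unchanged in Bhmt-ps1 or Gm5096 make up 12.129% of its transcript windows. Reads from these copies and from Bhmt cannot be told apart there. Gm15622 on the other strand covers 3.248% of its exon bases, and whether its reads were kept apart depends on the strand setting, which is not given.

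Ces2a, a carboxylesterase of the endoplasmic reticulum that cleaves esters of drugs and lipids, lies at chr8:104734003-104741634 on the plus strand. It stood at 0.648, 25.2, 0.946 and 17.6 CPM in the On T controls and at 86.3, 0.874, 10.3 and 35.9 CPM in the Post T controls. It stood at 0.0952, 0.0983, 0.116 and 0.231 CPM on testosterone and at 0.123, 0.0594, 0.0340 and 0 CPM after it. Even the lowest controls, which were the same 3 libraries that were low in Bhmt, lay above every treated library. The log2 fold change was -6.34 (SE 1.5) on testosterone and -9.18 (SE 1.69) after it. It was -5.54 without On T control 2, -8.08 without Post T control 1 and -10.03 without Post T library 1. Its transcript windows are shared with Gm7208 for 2.966%.

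Bpifb6, of the BPI fold family of lipid-binding proteins, lies at chr2:153900388-153912795 on the plus strand. Its counts were 5, 57, 6 and 19 in the On T controls and 242, 10, 46 and 94 in the Post T controls. They were 2, 3, 2 and 0 on testosterone, and after it 1 count was found in Post T library 1 and none in the other 3. In CPM the groups did not overlap at either time, although the lowest On T control, at 0.108 CPM, was close to the highest On T library at 0.0983 CPM. The log2 fold change on testosterone was -3.69 (SE 1.28), and -2.33 without On T control 2. The Post T ratio, control over treated, was 439 with an exact 95% interval for counting error of 78.4 to 17400. Post T control 1 held 242 of the 392 control counts. The fitted log2 fold change was -8.35, and -7.05 without that library.

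Cmtm5, a membrane protein of the CMTM (chemokine-like factor and MARVEL domain) family known from brain, lies at chr14:54936261-54939274 on the plus strand and had the fewest counts of the set. The On T controls held 7, 22, 7 and 20 counts and the On T libraries 1, 1, 0 and 0. The Post T controls held 0, 0, 17 and 15 counts and the Post T libraries 2, 1, 2 and 1. The On T groups did not overlap and the ratio, control over treated, was 27.9 (exact 95% interval for counting error 7.37 to 236). The Post T groups overlapped, since Post T controls 1 and 2 held no Cmtm5 count at all, which in the smaller of these libraries allows up to 0.117 CPM. The Post T log2 fold change was -2.41 (SE 1.01), and -1.70 without Post T control 3.

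Parm1 and Efs behaved otherwise. Parm1, a mucin-like membrane protein first described as an androgen-regulated gene of prostate, lies at chr5:91517615-91626894 on the plus strand. It stood at 19.3, 35.4, 22 and 29.3 CPM in the On T controls and at 25.2, 18.5, 27.7 and 21.5 CPM on testosterone, values that interleave (log2 fold change -0.19, SE 0.22). In the Post T controls it stood at 56.1, 32.1, 26.5 and 30.9 CPM and after testosterone at 21.3, 22.7, 21.8 and 20.4 CPM, so that the treated libraries lay below all controls by a log2 fold change of -0.75 (SE 0.22). The Post T libraries were close together, with a coefficient of variation (CV, the SD over the mean) of 0.0445.

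Efs encodes a docking protein of the Cas family that binds Src-type kinases, and it lies at chr14:54916535-54926126 on the minus strand. It stood at 21.9, 52.4, 31.2 and 49.1 CPM in the On T controls and at 13.2, 22.6, 11.8 and 16.7 CPM on testosterone. Only On T library 2 reached above the lowest control (log2 fold change -1.27, SE 0.32). It stood at 12.2, 22.3, 31.6 and 40.7 CPM in the Post T controls and at 9.34, 11.1, 11.6 and 8.33 CPM after testosterone. There the groups did not overlap, but Post T control 1 was separated from the highest treated library by less than the spread within either group (log2 fold change -1.41, SE 0.33). Efs kept 1464 counts over the 4 Post T libraries and Parm1 kept 3176.

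**Figure D1:**
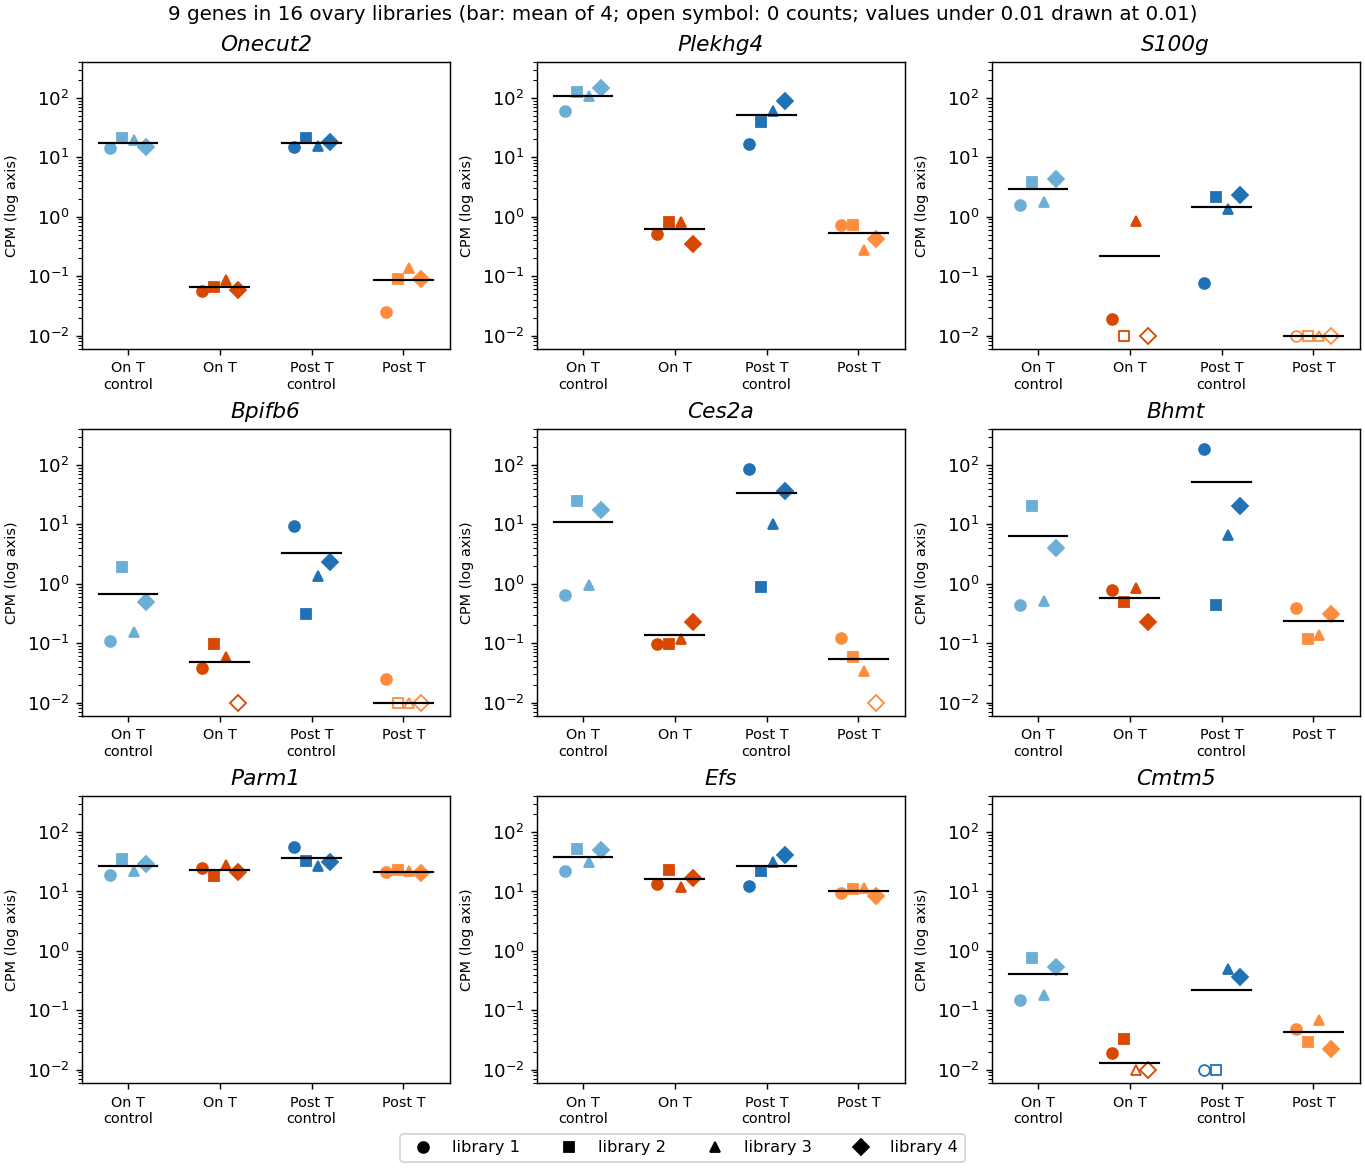
CPM of the 9 genes on a log axis in the 4 groups, 1 symbol per library with the library number as its shape and a bar at the mean of 4; open symbols are libraries with 0 counts, and values under 0.01 are drawn at 0.01. Treated libraries of Onecut2 and Plekhg4 lie far below all of their controls, controls of Bpifb6, Ces2a and Bhmt are scattered over orders of magnitude, and Parm1 and Efs stay above 8 CPM in every library.

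Across the set, every treated library lay below every control library for 6 of 9 genes on testosterone, all but Bhmt, Parm1 and Efs, beside 7.92% of all 18833 tested genes. After testosterone this was so for 8 of 9, all but Cmtm5, beside 6.92% of all tested genes. The genes were selected on these contrasts, so nothing is read from the difference. Leaving out each library in turn gave 6 to 7 of 9 and 8 of 9. On the TPM scale, which divides by transcript length, the median level over the 8 controls ran from Plekhg4 at 30.2 through Efs (18.2), S100g (11.5), Ces2a (11.1), Parm1 (8.54), Bhmt (3.19) and Onecut2 (1.42) to Bpifb6 (0.89) and Cmtm5 (0.86). In that order S100g and Ces2a, and Bpifb6 and Cmtm5, stood closer together than the spread of either over the controls.

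The control mice themselves differed widely in most of these genes. The CV of CPM over the 8 controls was 2.13 for Bhmt, 1.55 for Bpifb6 and 1.3 for Ces2a, values higher than those of at least 99.7% of all tested genes, whose median was 0.164. It was 0.875 for Cmtm5, 0.631 for S100g, 0.540 for Plekhg4, 0.428 for Efs and 0.358 for Parm1. For Onecut2 it was 0.165, close to the median gene. Counting error adds to the CV of Cmtm5 and Bpifb6, which have few counts. The highest control exceeded the lowest 423-fold for Bhmt, 133-fold for Ces2a and 87.3-fold for Bpifb6.

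The controls that were high were not the same for all 9 genes. Post T control 1 was the highest of the 8 for Bhmt, Ces2a, Bpifb6 and Parm1, and the lowest for Plekhg4, S100g and Efs. It also held no Cmtm5 count, and its total of 26598055 counts was the smallest of the 16 libraries. On T controls 1 and 3 and Post T control 2 were low in Bhmt, Ces2a and Bpifb6 together. Hsd17b7, a luteal reductase that turns estrone into estradiol, followed the same mice: it stood at 63.9, 644, 45.0 and 230 CPM in the On T controls and at 1280, 74.1, 273 and 950 CPM in the Post T controls. Star, the cholesterol carrier of steroid cells, was at 2630 CPM in Post T control 1 and at 315 to 824 CPM in the other 7 controls. Akr1c18, the enzyme that inactivates progesterone in old corpora lutea, was even among the same mice, at 105 to 189 CPM. Of 7 genes that mark liver and gut, the usual sites of Bhmt and Ces2a, Apoa1 averaged 41.7 and 36.4 CPM in the On T and Post T controls and Vil1 4.95 and 4.06 CPM. The other 5 were at or near 0: Alb averaged 0.0149 ± 0.0175 and 0.0312 ± 0.0625 CPM in the On T and Post T controls (SD, n = 4), Fabp1 was at 0 in both, and Ttr, Serpina1a and Cdx2 averaged at most 0.0860 CPM in either control group.

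**Figure D2:**
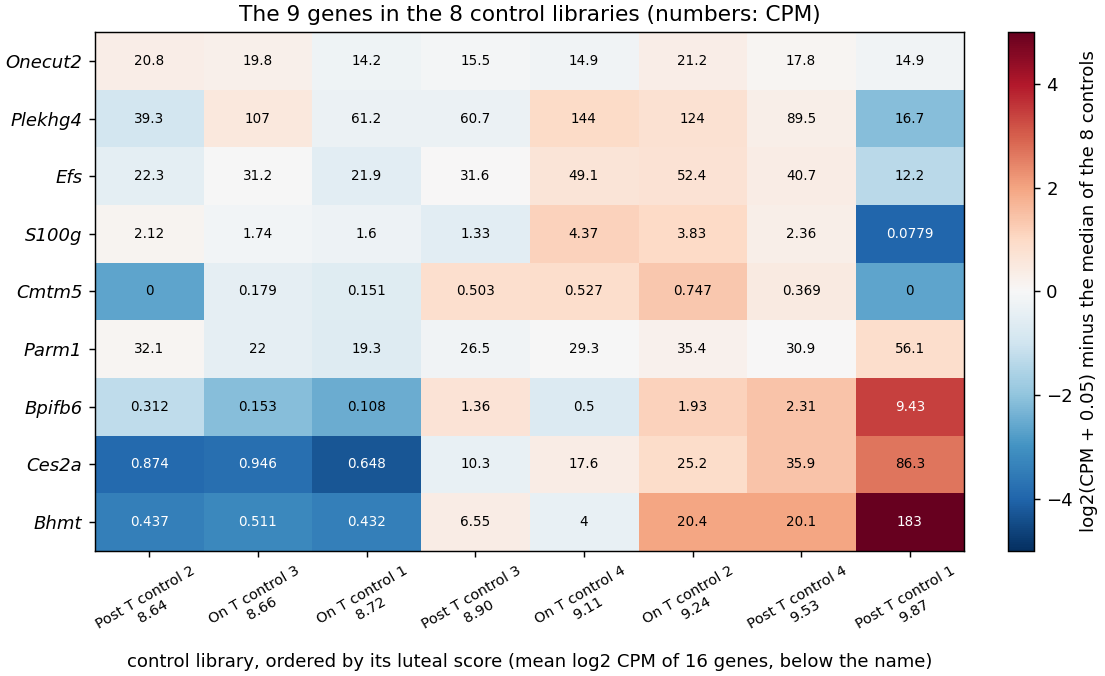
The 9 genes (rows) in the 8 control libraries (columns, ordered by the luteal score printed under each name); colour is log2(CPM + 0.05) minus the median of the row, and the numbers are CPM. Bhmt, Ces2a and Bpifb6 are low in the 3 columns on the left and highest in Post T control 1 on the right, where Plekhg4, Efs and S100g are at their lowest.

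The difference between the control groups was not used to choose the genes and was tested. The question is whether the levels differ between cycling mice at 16 weeks and at 24 to 28 weeks, and age, cohort and the day of collection cannot be told apart in it. None of the 9 genes passed (edgeR quasi-likelihood test, Benjamini-Hochberg adjustment), nor did any other gene, with 0.0% of 18833 called. At an unadjusted p under 0.05 there were 1892 genes, and DESeq2 called 179. Means were lower in the older controls for Plekhg4 (log2 fold change -1.08, SE 0.37, edgeR adjusted p = 0.31) and higher for Bhmt (3.08, SE 1.23, edgeR adjusted p = 0.40), Bpifb6 (2.37, SE 0.85, edgeR adjusted p = 0.332) and Parm1 (0.46, SE 0.22, edgeR adjusted p = 0.493). For Onecut2 the difference was -0.02 (SE 0.16). Single mice moved these differences. Without Post T control 1 they were 0.55 for Bhmt, 1.07 for Bpifb6 and 0.53 for Ces2a, and without On T control 2 they were 5.03, 3.73 and 2.40. For Cmtm5 the difference was -1.42 without Post T control 3. Older and younger controls overlapped for all 9 genes. Ces2a, S100g, Efs and Cmtm5 differed by 1.60 (SE 0.99), -0.94 (SE 0.83), -0.53 (SE 0.32) and -0.73 (SE 0.73) on the log2 scale, all with edgeR adjusted p of 0.614 or more.

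Whether the spread among control mice followed the amount of luteal RNA was examined with a luteal score, the mean log2 CPM of 16 luteal genes of which none is in the set. The score was 8.72, 9.24, 8.66 and 9.11 in the On T controls and 9.87, 8.64, 8.90 and 9.53 in the Post T controls. Over the 8 controls Bhmt had a Pearson's r of 0.956 with it (Spearman's rho 0.881, exact permutation p = 0.000546 and p = 0.00724, two-sided). For Ces2a r was 0.925 (rho 0.929, exact permutation p = 0.000223 and p = 0.00223), and for Bpifb6 it was 0.916 (rho 0.881, exact permutation p = 0.00169 and p = 0.00724). Adjusted over all 18833 genes the permutation p-values of r were 0.0829, 0.0657 and 0.122, so none of the 3 passed. Of all genes 0.101% passed, 19 in number, and 11.6% had an unadjusted p under 0.05. The share of genes with a higher r was 0.313% for Bhmt, 0.727% for Ces2a and 0.839% for Bpifb6. Without Post T controls 1 and 4, the libraries farthest from the median score, r was 0.927 for Bhmt, 0.949 for Ces2a and 0.779 for Bpifb6. Centred on each control group, it was 0.949, 0.916 and 0.922.

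For Parm1 r with the luteal score was 0.809 (rho 0.571, exact permutation p = 0.0128 and p = 0.151, adjusted p of r = 0.257), and it was 0.595 without Post T controls 1 and 4. The other 5 genes had r between -0.526 and -0.039 with exact permutation p of 0.173 or more and rho between -0.238 and 0.19 with exact permutation p of 0.582 or more. Without Post T controls 1 and 4 r was 0.918 for Efs, 0.846 for Cmtm5, 0.751 for S100g and 0.692 for Plekhg4, and -0.026 for Onecut2. The sign of the first 4 changed with Post T control 1 left out. Without that library alone r was 0.779, 0.678, 0.538 and 0.531 for the same genes. Without Post T control 4 alone it was -0.306, -0.135, -0.647 and -0.456. For Cmtm5, whose r over all 8 controls was -0.039, the sign also changed without Post T control 3 (0.012). A score of 10 granulosa genes of growing follicles gave r between -0.572 and 0.470 for the 9 genes, with exact permutation p of 0.149 or more and rho between -0.405 and 0.524 with p of 0.197 or more. With that score 0.0% of all genes passed, while 1505 had an exact permutation p under 0.05. Without On T controls 3 and 4, the libraries farthest from the median granulosa score, r lay between -0.602 and -0.058. In all, 18 relations were computed for the set.

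**Figure D3:**
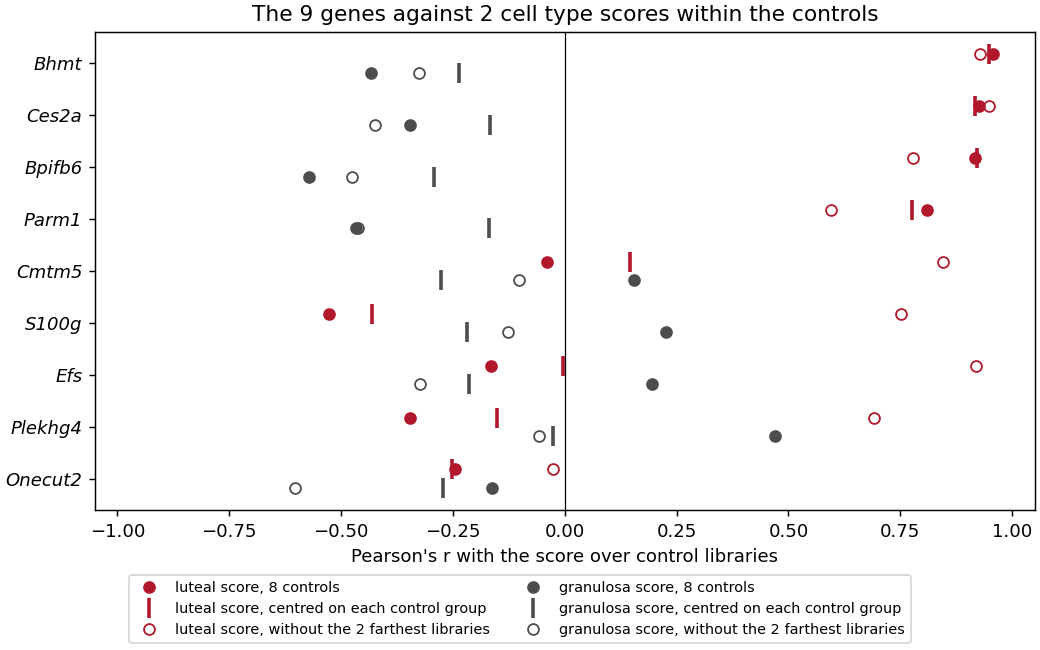
Pearson's r of each gene with the luteal score (red) and the granulosa score (grey) over the controls: filled circles for all 8 libraries, ticks after centring on each control group, open circles without the 2 libraries farthest from the median score. Bhmt, Ces2a and Bpifb6 stay above 0.77 with the luteal score in all 3, and Efs, Cmtm5, S100g and Plekhg4 change sign when 2 libraries are left out.

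Most luteal genes of the score list fell on testosterone, in a list chosen with earlier results of these libraries known, so its direction is not independent evidence. Of the 16, 10 passed as lower and 0 as higher on testosterone (beside 5.03% of all tested genes lower and 4.24% higher, edgeR quasi-likelihood test at an adjusted p of 0.05), with a median log2 fold change of -1.52 against -0.005 over all genes. After testosterone 8 were lower and 0 higher (4.81% and 7.49% of all genes), with a median of -0.94 against -0.01. Of the luteal list, Akr1c18 at -7.78 (SE 0.26) on testosterone, Sfrp4 at -7.63 (SE 0.55) and Ptgfr at -6.64 (SE 0.51) had log2 fold changes of the size seen in Onecut2 and Plekhg4. Genes that did not pass at either time included Lhcgr, Scarb1, Hsd3b1, Nr5a2 and Inha, and Cyp11a1 and Fdx1 did not pass after it. Of 10 granulosa genes and 8 oocyte genes none passed at either time (granulosa medians 0.13 and 0.05). Of 7 theca genes, Gli1, Pdgfra and Tcf21 passed as higher on testosterone, and Insl3 and Tcf21 after it.

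Macrophage markers moved with the treatment as well. Of 8, Cd68, Gpnmb, Lyz2 and Itgax were higher on testosterone. After it these 4 and Csf1r were higher and Cd163 was lower. Their summed level was 230 to 380 CPM in the On T controls and 564 to 1030 on testosterone. It was 4470 to 6780 CPM after testosterone, against 407 to 985 in the controls of that age. Lyz2 and Gpnmb, which averaged 3220 and 1920 CPM after testosterone, made up most of that sum. Adgre1 and Mrc1 did not pass at either time. Surface epithelium markers passed as lower for 1 of 8 on testosterone, Lgr5, and for none after it, and their summed level ran from 37.6 to 279 CPM in the On T libraries against 173 to 272 in their controls. The liver and gut list passed for 0 of its 2 tested genes and the oviduct list for 0 of 5, at both times. The part of these cell types in the levels of the 9 genes was not tested.

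Relatives of the 9 genes were counted by family, beside 5.03% lower and 4.24% higher among all tested genes on testosterone and 4.81% lower and 7.49% higher after it. Among 10 other tested S100 genes, 5 were lower on testosterone and 0 higher, and 3 were lower and 2 higher after it, with medians of -0.50 and -0.18. S100a6 had log2 fold changes of -3.68 (SE 0.14, edgeR adjusted p = 4.78e-11) on testosterone and -3.69 after it. For S100a4 they were -2.63 (SE 0.23, edgeR adjusted p = 1.56e-06) and -2.48, and for S100b -3.01 (SE 0.55, edgeR adjusted p = 0.002) and -4.10. S100a10 and S100a11 passed on testosterone (-0.38 and -0.44) and did not pass after it. S100a1 and S100a8 passed as higher after testosterone (1.76 and 1.78). Calcium transport genes that work with calbindin in gut and kidney passed for 0 of 5 at both times; Trpv6, the apical calcium channel, averaged 1.61 ± 0.44 CPM in the On T controls (SD, n = 4), and Trpv5 was at 0 in every group.

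Most BPI fold relatives went the other way from Bpifb6. Of 5 listed relatives that were tested, 4 were higher on testosterone and 5 after it, with medians of 1.24 and 1.19. The list left out 2 tested neighbours of Bpifb6 from the family. Bpifa2 was higher on testosterone (log2 fold change 2.19, edgeR adjusted p = 0.00835) and did not pass after it (0.42). Bpifa6 did not pass at either time (0.64 and 1.40). Bpifb4 averaged 52.4 ± 13.7 CPM in the On T controls and 142 ± 13.6 on testosterone (n = 4 each, ± SD). Its log2 fold change was 1.43 (SE 0.21) with an edgeR adjusted p of 0.000305, and also 1.43 after testosterone. Lbp, the lipopolysaccharide-binding protein, rose by 1.26 and 1.19, Bpifb5 by 1.24 and 1.17, and Bpifb1 by 1.14 and 1.38 on the log2 scale. Pltp, the phospholipid transfer protein, rose after testosterone by 0.66. The carboxylesterases gave 0 of 4 on testosterone and 1 of 4 after it, Ces2g (0.38 higher, edgeR adjusted p = 0.0412). Ces2b, the neighbour of Ces2a in its cluster, averaged 0.185 ± 0.141 CPM in the On T controls and did not pass.

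Of 15 tested genes of the methionine and betaine cycle, Chdh alone passed at each time. Chdh, the mitochondrial enzyme that makes betaine from choline, averaged 9.59 ± 2.73 CPM in the On T controls and 39.7 ± 10.1 on testosterone (n = 4 each, ± SD). Its log2 fold change was 2.05 (SE 0.27) with an edgeR adjusted p of 0.000137, and 0.89 after testosterone with an edgeR adjusted p of 0.0376. Mtr, which remethylates homocysteine with folate rather than betaine, averaged 51.1 ± 3.39 and 53.2 ± 5.89 CPM. Bhmt2, the nearest relative of Bhmt, averaged at most 0.149 CPM in any group and was not tested. The Cas relatives Bcar1 and Nedd9 passed as lower after testosterone (-0.33 and -0.64), and none of the 3 passed on it. Of 7 CMTM relatives, Cmtm8 was lower on testosterone (-0.72, edgeR adjusted p = 0.0326) and Cmtm2a higher after it (0.79, edgeR adjusted p = 0.0226). Plekhg3 was higher at both times (0.58 and 0.48), and the other 4 Plekhg genes did not pass. Onecut1 averaged at most 0.138 CPM and Onecut3 was at 0 in every group. In the controls Onecut2 was therefore the one Onecut gene with more than trace counts.

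Efs and Cmtm5 lie side by side on chromosome 14, with starts 10.1 kb apart on opposite strands and no exon overlap. On the far side of Cmtm5 lie the cardiac and slow-muscle myosin heavy chain genes Myh6 and Myh7, whose starts are 30.7 and 58.4 kb from that of Cmtm5. Both rose in the treated ovaries: Myh6 averaged 1.03 CPM in the On T controls and 65.5 on testosterone with a log2 fold change of 5.97 (SE 0.45) and an edgeR adjusted p of 4.11e-07. Its log2 fold change after testosterone was 1.81 (SE 0.47) with an edgeR adjusted p of 0.0161. For Myh7 the same values were 3.22 (SE 0.25) on testosterone and 0.83 (SE 0.25) after it, with edgeR adjusted p of 4.52e-07 and 0.0423. The gene on the far side of Efs, Slc22a17, did not pass at either time (-0.32, SE 0.21, and -0.57, SE 0.21). Around the 8 genes with a position given here, 31 other tested genes lay within 100 kb, of which 5 were higher and 0 lower at each time, where of all tested genes 4.24% were higher and 5.03% lower on testosterone and 7.49% and 4.81% after it. Besides Myh6 and Myh7 these were Bpifb4 and, on testosterone, Bpifa2 (2.19) next to Bpifb6, Tppp3 near Plekhg4 at both times (1.04 and 0.67), and Nol3 near Plekhg4 after testosterone (0.90).

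**Figure D4:**
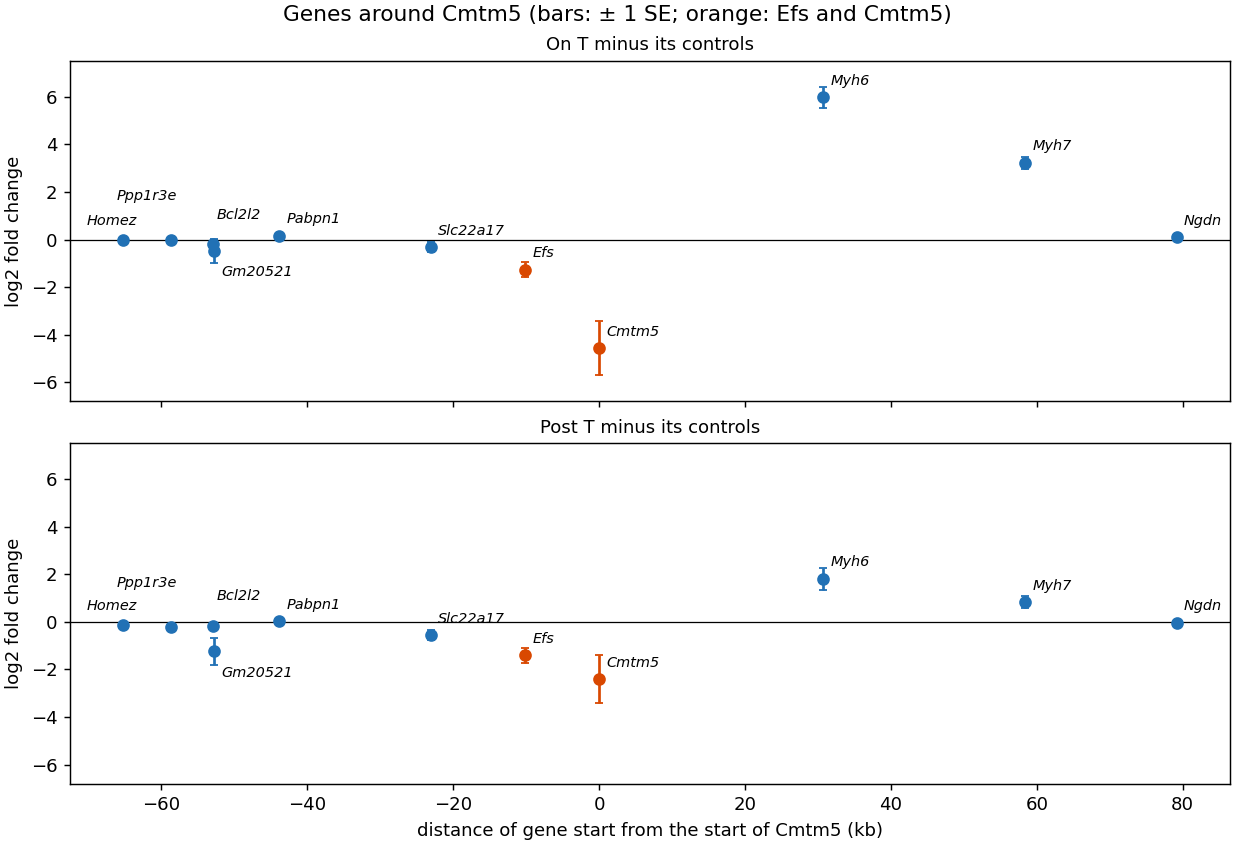
Log2 fold change (circles, bars ± 1 SE) of the tested genes around Cmtm5, placed by the distance of their start from that of Cmtm5 in kb, on testosterone (top) and after it (bottom). Efs and Cmtm5 (orange) are below 0 in both panels, Myh6 and Myh7 above 0, and the genes to the left of Efs, none of which passed, lie between -1.24 and 0.16.

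The genes whose log2 CPM was most like that of each gene are named by Pearson's r, as a description over libraries that share the treatment contrast. Over the 16 libraries these were S100a6 and Abcb1b (both 0.992) for Onecut2, Ccn5 (0.994) and Abcb1b (0.982) for Plekhg4, and Gulp1 (0.960) and Ccn4 (0.959) for Efs. Ssu2 was the closest to Bhmt (0.968) and, with Rab27a, to Bpifb6 (both 0.972), and Frat2 was the closest to Ces2a (0.976). S100g was closest to B3glct (0.95), Parm1 to Adra2c (0.921) and Cmtm5 to Zfp469 (0.911). Over the 8 controls, where treatment has no part, the closest were Slc12a8 (0.992) for Bhmt, Sparc (0.983) for Ces2a, Saa3 (0.982) for Bpifb6, Nacad (0.985) for Parm1, Dcaf7 (0.997) for Efs, Gtf3c4 (0.987) for S100g, Prrx2 (0.983) for Plekhg4, Col6a2 (0.963) for Cmtm5 and Ighmbp2 (0.955) for Onecut2. Such values are the highest of a search over many genes with only 8 libraries. Both searches left out the genes of the set themselves, predicted and Rik genes, pseudogenes and genes of low mean level.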

How the data were processed

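Poly(A) RNA of 16 ovaries was sequenced as directional paired-end libraries, per the labels' protocols. Tools named in the submitters' processing notes are STAR 2.7.8a, RSEM 1.3.3, cutadapt 2.3 and FastQC 0.11.8, with the build GRCm38. Annotation release and strand setting are not given in the sources used here. The deposited expected counts are estimated counts per gene that the authors did not normalise, and all of them were whole numbers. The authors' TPM values are relative to transcript length and library size. Their FPKM table was left out.

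Counts were fitted with edgeR 4.0.16 in R 4.3.3: filterByExpr (minimum count 10), TMM, a mean for each of 4 groups over 16 libraries, and the quasi-likelihood F test, with p adjusted by Benjamini-Hochberg (threshold 0.05). CPM are scaled by TMM, and log2 CPM used a prior count of 2. Ratios with intervals are of summed counts, exact at 95%, and cover counting error only, as do floors of 3 counts. Relations used Pearson's r with all 40320 permutations of 8 libraries. Alternatives were DESeq2 1.42.0, limma 3.58.1 on log2(TPM + 1) and log2(TPM + 0.1), median-of-ratios scaling, other filters, only the 8 libraries compared, a replicate block and leaving out each library. The count of genes without overlap when leaving out each library was added after seeing the data. The fit was tested on simulated data.

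The 9 genes, the lists and the motifs were chosen with earlier results of these data known. Named genes were the 9, their families, the luteal genes with the largest falls, genes within 100 kb, and the 2 most alike. Promoters are RefSeq's (GRCm38.p6; 8 of 9 genes matched), positions GENCODE's for GRCm38 (55154 of 55426 identifiers found). Labels do not say that equal library numbers pair mice: same-numbered libraries correlated at -0.0194 to 0.281 in their deviations. Replicates are separate mice.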

Additional observations from a re-analysis of the deposited data

Results flagged for a closer look

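In 4 of 35 combinations of gene and group, 1 library lay apart from the other 3 by more than Dixon's 95% critical value for 4 samples. For normally distributed values this happens in about 1 of 20 groups. That rate does not hold for levels near 0 counts, so the number of flags is not read as an excess. S100g in On T library 3 was at 0.838 CPM while the other 3 On T libraries held 0 to 0.0190. Bpifb6 in Post T library 1 was at 0.0246 CPM, which is 1 count where the other 3 held 0, a pattern that is always flagged. Ces2a in On T library 4 was at 0.231 CPM, 8 counts, against 0.0952 to 0.116. Bhmt in Post T control 1 was at 183 CPM against 0.437 to 20.1 in the other 3 Post T controls.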

How the results depend on the processing

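No log2 fold change of the 9 genes reversed in the treated groups: on testosterone 126 of 141 values under the alternatives stayed within their spread and 15 moved, and after it 127 of 141 stayed and 14 moved. Most that moved were smaller falls with log2(TPM + 1) or log2(TPM + 0.1), where the added constant limits the fall of a gene with low TPM. Onecut2 was at -1.28 with the constant 1 and at -3.87 with 0.1. Its mean TPM was 1.46 in the On T controls and 0.005 on testosterone, so the smaller values do not mean a weaker fall in TPM. Single libraries moved S100g (-7.92 without On T library 3), Bhmt and Bpifb6 (-1.42 and -2.33 without On T control 2) and Bpifb6 after testosterone (-9.91 without Post T library 1). Between the control groups none of 143 values came to pass the test or lost it, but leaving out each library gave 0.55 to 5.03 for Bhmt, 1.07 to 3.73 for Bpifb6, 0.53 to 2.40 for Ces2a and -0.11 to 0.09 for Onecut2. Cmtm5, Bpifb6 and S100g have no value under filters they did not pass.

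Over all genes, 1746 were called on testosterone, 1130 with limma on log2(TPM + 1), and 1081 to 1764 leaving out each library (1081 without On T control 4, 1094 without On T control 2, against 1746). After testosterone 2315 were called. Between the control groups 0 were called, 179 with DESeq2, 20 with no filter and 0 to 9 leaving out each library. The relation to the luteal score was called for 19 genes, for 0 after centring on each control group, 0 on log2(TPM + 1), and 0 to 0 leaving out each library, where 7 libraries allow few distinct p-values. With the replicate number as a block, 1676, 2274 and 0 genes were called in the 3 comparisons; same-numbered libraries share a number and were not shown to be paired, and only some correlated best with their own number. Depth limits the treated levels of Cmtm5, Bpifb6, Onecut2, Ces2a and S100g, which held 8, 8, 22, 28 and 30 counts over the 8 treated libraries.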
